A study of Mus musculus with 6 samples.

Results

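The genes described here are 10 peptide hormone genes of the minor islet cells and the gut: Ppy, Pyy, Npy, Ghrl, Cck, Gast, Gip, Nts, Gal and Vip. They were taken by symbol from a table of 55536 genes counted in RNA from whole mouse pancreatic islets. All 10 are in the table, 8 of them with at least 10 counts over the 6 libraries and so with a fitted fold change. The 3 control libraries came from C57B1/6J mice of the genotype Klf4+/+;Gcg-iCre, which carry the Cre driver with intact Klf4. The 3 knockout libraries came from Klf4fl/fl;Gcg-iCre mice, in which Cre made from the glucagon gene acts on floxed Klf4 in alpha cells. Both genotypes carry Gcg-iCre, so an effect of the driver itself is shared by the groups. Age, sex and the number of animals behind a library are not given in the sources used here, and p-values then measure the spread between these libraries. The design asks which genes in islets change when alpha cells lack the transcription factor KLF4.

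Peptide hormones are made as precursors that are cut in secretory granules, and some are then amidated. Pancreatic polypeptide (Ppy), peptide YY (Pyy) and neuropeptide Y (Npy) form one family, the PP-fold peptides, which act on Y receptors. Ppy marks the PP or gamma cell, whereas Pyy is made by several islet endocrine cell types. Ghrelin (Ghrl) marks the rare epsilon cell. Cholecystokinin (Cck) and gastrin (Gast) share a C-terminal sequence and the CCK receptors. Glucose-dependent insulinotropic polypeptide (Gip) and neurotensin (Nts) are chiefly products of intestinal endocrine cells. Vasoactive intestinal peptide (Vip) and galanin (Gal) are transmitters of autonomic nerves, which enter the islet, as is Npy.

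The genes are protein-coding and lie on 5 autosomes. Ppy (ENSMUSG00000017316, chr11:102099930-102101319) and Pyy (ENSMUSG00000017311, chr11:102106676-102107832) are neighbours on the minus strand of GRCm38, 5356 bases apart with 0 annotated genes between them. Gast (chr11:100334407-100336996, plus strand) and Gip (chr11:96024545-96030831, plus strand) lie on the same chromosome. Npy is at chr6:49822710-49829507 on the plus strand and Ghrl at chr6:113716119-113719880 on the minus strand. Vip is at chr10:5639218-5647617 on the plus strand and Nts at chr10:102481756-102490486 on the minus strand. Cck is at chr9:121489824-121495694 and Gal at chr19:3409915-3414544, both on the minus strand. Ghrl overlaps 2 annotated genes on the opposite strand, and since the strand setting of the counting is not given, its count is uncertain. The other 9 overlap no annotated gene.

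The 250 bases before the annotated start are shown for the neighbours Ppy and Pyy, which were highest and lowest in the same libraries, and for Npy and Vip, which nerves also make. The sequences are from RefSeq (GRCm38.p6), and capitals mark TATAA (the core of a TATA box), CACCC (the short element bound by Kruppel-like factors, read GGGTG on the other strand) and TGACG (the cyclic AMP response element half-site), each searched on both strands.
Ppy (chr11:102101320-102101569, minus strand): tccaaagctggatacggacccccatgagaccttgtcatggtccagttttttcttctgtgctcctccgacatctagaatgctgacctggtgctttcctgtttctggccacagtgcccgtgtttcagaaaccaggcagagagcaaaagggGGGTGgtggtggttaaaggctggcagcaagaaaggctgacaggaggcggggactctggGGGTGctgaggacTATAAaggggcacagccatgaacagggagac
Pyy (chr11:102107833-102108082, minus strand): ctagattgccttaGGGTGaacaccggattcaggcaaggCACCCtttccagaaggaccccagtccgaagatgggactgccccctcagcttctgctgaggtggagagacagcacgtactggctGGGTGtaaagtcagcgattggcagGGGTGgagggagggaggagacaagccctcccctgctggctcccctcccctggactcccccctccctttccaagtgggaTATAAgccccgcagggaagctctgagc
Npy (chr6:49822460-49822709, plus strand): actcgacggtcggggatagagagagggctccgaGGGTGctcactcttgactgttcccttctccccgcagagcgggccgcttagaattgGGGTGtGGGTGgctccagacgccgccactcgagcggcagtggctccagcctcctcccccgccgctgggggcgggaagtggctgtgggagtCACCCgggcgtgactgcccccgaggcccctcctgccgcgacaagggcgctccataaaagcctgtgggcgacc
Vip (chr10:5638968-5639217, plus strand): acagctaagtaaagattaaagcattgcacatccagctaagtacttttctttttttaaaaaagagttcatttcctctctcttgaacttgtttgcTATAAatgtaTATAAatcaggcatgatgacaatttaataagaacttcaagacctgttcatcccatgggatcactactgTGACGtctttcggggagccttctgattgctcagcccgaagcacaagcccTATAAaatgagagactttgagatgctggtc
TATAA begins 31 bases before the start of Ppy and 27 bases before that of Pyy. The Ppy window holds 2 CACCC matches, that of Pyy 4 and that of Npy 4, while the Vip window holds 0. TGACG stands 1 time in the Vip window. All 10 genes matched the RefSeq table. CACCC was in 9 of their 10 windows, against 52.0% of all 32851 windows of this length. TATAA was in 5 of 10, against 22.8%, and TGACG in 3 of 10, against 17.8%. These are matches of letters, and no binding was measured.

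The libraries held 101277200 to 110243918 counts. Ins2 had the highest mean level per length of all genes and Gcg ranked 3, which matches the islet label. Normalized counts (counts divided by the library's size factor) of Klf4 were 3148, 2879 and 2015 for the controls, and 2340, 2540 and 2277 for the knockouts, in the order of their replicate numbers here and below. These ranges overlapped (DESeq2 log2 fold change -0.17 ± 0.15 SE, adjusted p = 0.774). Without control replicate 3 the change was -0.34 (adjusted p = 0.00568), and without control replicates 1 or 2 it was -0.038 and -0.11 (adjusted p = 0.964 and 0.970). The 12 alternatives other than a replicate block gave adjusted p values between 0.00568 and 0.999. The level of Klf4 in alpha cells alone was not measured, and the deletion there was not tested. Xist was at 77938 to 108105 normalized counts in the controls and 12.4 to 30.2 in the knockouts, while the Y-linked Ddx3y was at 0 and at 5599 to 6265. Genotype and the sex of the mice cannot be told apart in any comparison below. Acinar markers, 7 of 7 found, summed to 358797 to 722274 normalized counts in controls and 905661 to 1299382 in knockouts. In DESeq2, 1 of these 7 was called higher, where 1.53% of all genes were. Their adjusted p in edgeR ran from 0.187 to 0.699. Mesenchymal markers, 6 of 6 found, summed to 49335 to 64535 and 93800 to 100527, and 5 of these 6 were called higher in DESeq2. Their adjusted p in edgeR ran from 0.00819 to 0.456. The 7 alpha-cell markers summed to 4114496 to 5919920 in controls and 3048755 to 3745976 in knockouts, nearly all of it from Gcg. Of the 7, 4 (Gcg, Irx2, Ttr and Slc38a5) fell in DESeq2, where 0.657% of all genes did, but 0 passed in edgeR (adjusted p from 0.218 to 0.402 for the 4), and each of the 4 lost the call without knockout replicate 1 and without knockout replicate 3 (all but Gcg also without control replicate 2). In the same list, Gc and Slc7a2 stood at 0.00 ± 0.14 and 0.03 ± 0.08 (log2 fold change, SE).

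Levels of the 10 genes were first set in order per length, in TPM (counts per base of exon, scaled to the same total in every library). Ppy ranked 5 of all 55536 genes by mean TPM, at 15317 (11542 to 18602 over the 6 libraries), and Pyy ranked 13, at 6880 (4934 to 9352). Npy followed at 75.7 TPM (43.5 to 105), Vip at 29.6 (16.9 to 54.1) and Ghrl at 19.6 (12.7 to 27.6). Gal was at 6.27 TPM, Gast at 1.19 and Cck at 0.112. The list thus held a pair of very abundant islet transcripts, a middle group and a group near the limit of detection. Npy exceeded Vip in 6 of 6 libraries although their ranges overlapped across libraries, and Vip exceeded Ghrl in only 3 of 6, so that order is not settled. Between Ghrl and Gal, Gal and Gast, and Gast and Cck the ranges did not overlap.

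**Figure D1:**
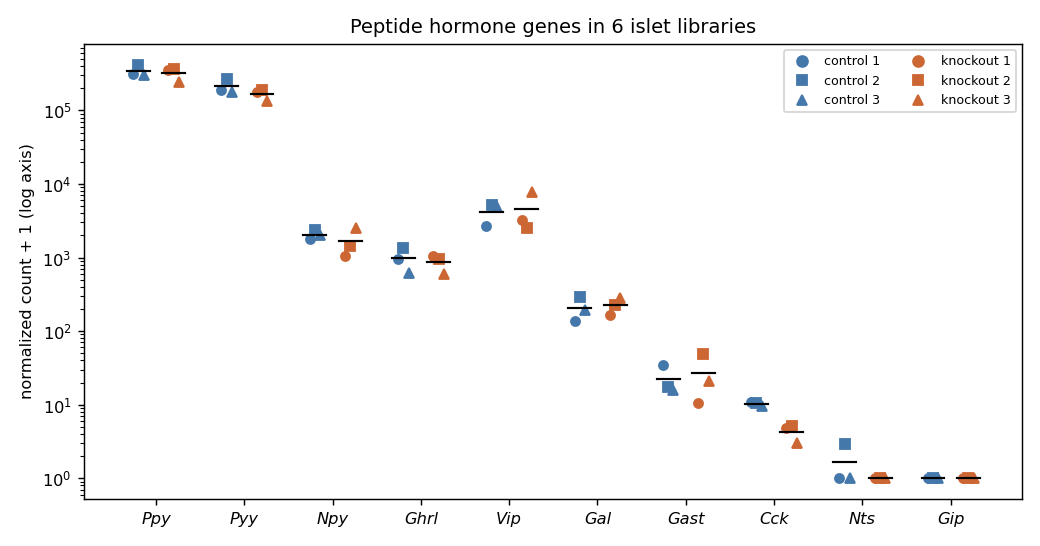
Normalized count + 1 of the 10 peptide genes on a log axis, with 1 point per library and a bar at the mean of each genotype. Control and knockout points lie among each other for Ppy, Pyy, Npy, Ghrl, Vip, Gal and Gast, whereas the 3 knockout points of Cck lie below the 3 control points, at counts of 10 or fewer.

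None of the 10 genes differed between the genotypes past the threshold. In DESeq2, 0 of the 7 given an adjusted p were under 0.05, where 2.19% of 17797 genes were; 0 of the 8 fitted had an unadjusted p under 0.05, where 9.03% of genes did. The edgeR quasi-likelihood test gave 0 of 8 as well, against 0.115% of 25210 genes, and 0 of 8 at an unadjusted p under 0.05, against 9.48%. Of the 8 fitted genes, 5 were lower and 3 higher in the knockouts, and their median log2 fold change was -0.13, beside -0.0018 over all 25210 genes fitted. Of the 6 with a mean of at least 50 normalized counts, 0 had groups that did not overlap, where 18.0% of 15811 genes did. In whole islets, fewer cells of a type and less RNA per cell cannot be told apart in any of these values.

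**Figure D2:**
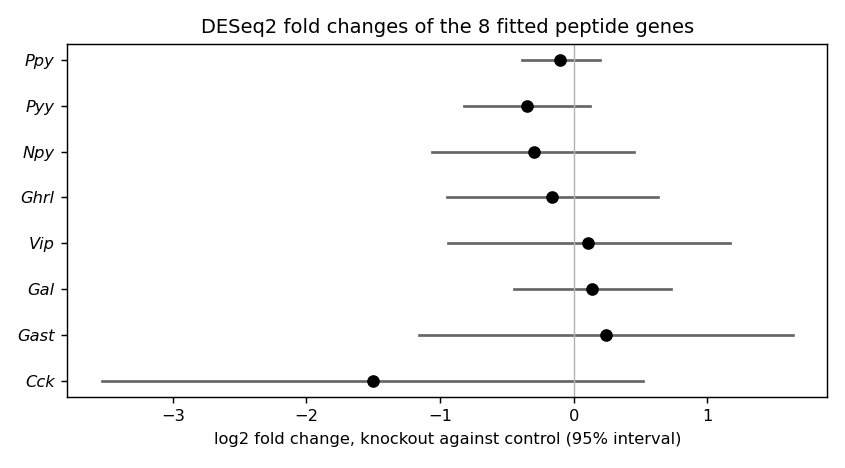
DESeq2 log2 fold change of knockout against control for the 8 fitted peptide genes, with the 95% interval as a line. All 8 intervals include 0; that of Ppy, from -0.39 to 0.20, is the narrowest and that of Cck, from -3.53 to 0.52, the widest.

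Ppy encodes pancreatic polypeptide, which restrains exocrine secretion and appetite. Its normalized counts were 309737, 418153 and 304924 for the controls, against 353443, 367594 and 244824 for the knockouts. Control replicate 2 was the highest library and knockout replicate 3 the lowest, and of the other 4 both controls lay below both knockouts, so the groups overlapped. The log2 fold change was -0.10 ± 0.15 (SE, DESeq2 adjusted p = 0.916), and its 95% interval ran from 0.761-fold to 1.15-fold. The sign rested on single libraries: it was 0.067 without control replicate 2 and 0.066 without knockout replicate 3. Ppy made up 0.284% to 0.398% of all counts in controls and 0.239% to 0.346% in knockouts.

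Pyy, whose product is released by several islet cell types and by the distal gut, was at 190351, 265293 and 179327 normalized counts in the controls. In the knockouts it was at 176844, 189130 and 132069. Control replicate 2 was again highest and knockout replicate 3 lowest, and 2 of 3 knockouts lay below every control. The log2 fold change was -0.35 ± 0.24 (SE, DESeq2 adjusted p = 0.647), with an interval from 0.568-fold to 1.08-fold. It was -0.16 without control replicate 2 and -0.21 without knockout replicate 3, and -0.46 without control replicate 3. An exact permutation over the 6 libraries, two-sided, gave p = 0.2, where 3 against 3 cannot go below 0.1.

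Ratios within a library do not depend on the scaling, and 7 ratios of hormone genes were computed after the values above were known. Relative to the Ppy count, Pyy stood at 61.46%, 63.44% and 58.81% in the controls and 50.03%, 51.45% and 53.94% in the knockouts. All 3 knockouts lay below all 3 controls, with means of 61.2 ± 2.32% for controls and 51.8 ± 1.98% for knockouts (SD, n = 3 each). The difference in log2 ratio was -0.24, between -0.27 and -0.22 when any 1 library was left out. The exact two-sided permutation test gave p = 0.1, the smallest possible, and 0.35 after Benjamini-Hochberg adjustment over the 7 ratios. Of 15810 other genes, 0.563% were lower relative to Ppy in the knockouts without overlap of the groups.

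Ppy was also compared with glucagon, Gcg, the alpha-cell hormone, which was lower in the knockouts (DESeq2 log2 fold change -0.56 ± 0.13 SE, adjusted p = 0.00332, from 0.00177 to 0.402 over the 12 alternatives). Ppy stood at 7.34%, 7.42% and 7.91% of the Gcg count in controls and at 12.38%, 10.42% and 8.32% in knockouts. The groups did not overlap, with a difference in log2 ratio of 0.44 (exact permutation p = 0.1, adjusted 0.35), but 62.3% of 15810 genes were likewise higher relative to Gcg without overlap. Pyy relative to Gcg overlapped, at 4.51% to 4.71% in controls and 4.49% to 6.19% in knockouts (exact permutation p = 0.4). For the other 4 ratios, Ghrl or Npy to Ppy and Ppy to Sst or Ins2, the groups overlapped and the exact permutation p ran from 0.5 to 0.9. Gcg without knockout replicate 1 or 3 missed the threshold (adjusted p = 0.144 and 0.0826), and edgeR gave 0.402.

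**Figure D3:**
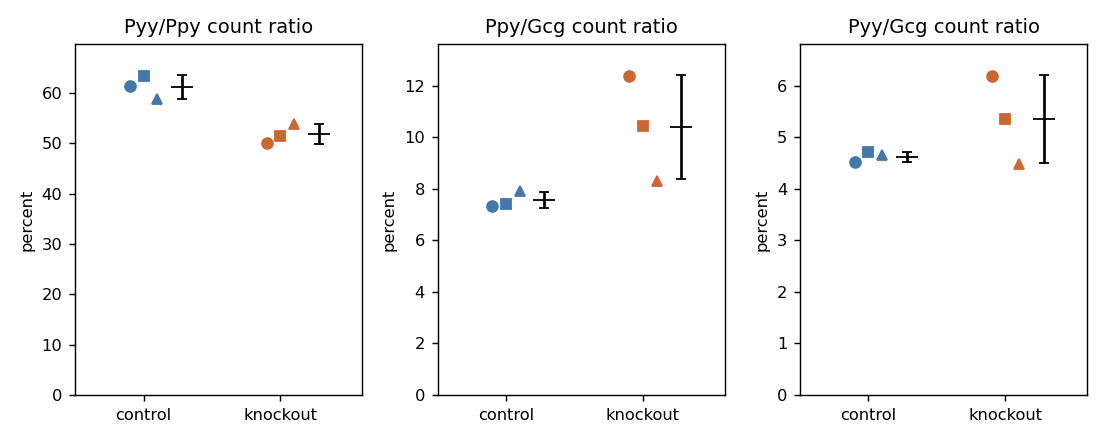
Count of one hormone gene as a percentage of another in each library, for Pyy to Ppy, Ppy to Gcg and Pyy to Gcg, with the mean and SD of each genotype beside the points (n = 3). The knockout points lie below the controls for Pyy to Ppy, above them for Ppy to Gcg, and spread from 4.49% to 6.19% around the control values for Pyy to Gcg.

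The genes with the profile nearest to Ppy over the 6 libraries were found by the root-mean-square difference of mean-centred log2(normalized count + 1), among 15810 genes with a mean of at least 50. Gm15841, Gm5148 and Epb41l4aos came first, at 0.062, 0.074 and 0.076, where the profile of Ppy itself had a root mean square of 0.244. These are transcripts of low level, between 54 and 288 normalized counts. Pyy ranked 41 for Ppy at 0.129, Sst 2071 and Gcg 7659. For Pyy the nearest were AC166172.4, Gm11772 and Gm5148 at 0.045, 0.075 and 0.082, Ppy ranked 42 and Gcg 173, at 0.168. Over 6 libraries such ranks describe these samples only.

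Markers of PP cells other than the hormone were 6 genes, all found, of which 5 were given an adjusted p. In DESeq2, 1 fell and 0 rose, where 0.657% of all genes were called lower and 1.53% higher. Meis2 and Etv1, transcription factor genes, were abundant and did not pass (log2 fold changes -0.18 ± 0.09 and -0.29 ± 0.14 SE, DESeq2 adjusted p = 0.452 and 0.385). Abcc9, a potassium channel subunit gene, and Ptgfr, a prostaglandin receptor gene, had estimates above 0 and did not pass either (0.08 ± 0.12 and 0.16 ± 0.35 SE, DESeq2 adjusted p = 0.907 and 0.946). Sertm1, a small membrane protein gene, was at 444, 659 and 437 normalized counts in controls and at 361, 260 and 241 in knockouts, so every knockout was below every control. It fell by 0.84 on the log2 scale in DESeq2 (SE 0.22, adjusted p = 0.013). The call was lost in edgeR (adjusted p = 0.283) and without control replicate 2, knockout replicate 2 or knockout replicate 3 (0.219, 0.133 and 0.164). Aqp3, a water channel gene, had at most 10 counts in a library. Summed, the 6 genes stood at 32619 to 36381 normalized counts in controls and 26517 to 32615 in knockouts.

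Ghrl was the only epsilon-cell hormone of the list. It was at 958, 1341 and 607 normalized counts in controls and at 1057, 951 and 597 in knockouts. Control replicate 3 and knockout replicate 3 were low alike and the groups overlapped. The estimate of -0.16 ± 0.40 (log2, SE, with a DESeq2 adjusted p of 0.958) left an interval from 0.519-fold to 1.55-fold. Mboat4, which encodes the enzyme that acylates ghrelin, had 3.84 to 13.2 normalized counts in all libraries. Ghsr, the ghrelin receptor gene, which delta cells express, was at 481, 423 and 511 normalized counts in controls and at 308, 438 and 335 in knockouts and did not pass (-0.39 ± 0.18 SE, DESeq2 adjusted p = 0.348). Mboat4 and Ghsr were named for their role after their values were seen.

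The gastrin family was near the limit of detection. Cck had 10, 10 and 8 counts in the controls and 4, 4 and 2 in the knockouts, so the groups did not overlap, at a level below the mean of 50 from which the share of 18.0% was taken. Its log2 fold change was -1.50 ± 1.03 (SE), with an unadjusted p of 0.146 in DESeq2, which gave no adjusted p at this level, and an adjusted p of 0.631 in edgeR. The summed counts of 28 and 10 give a knockout to control ratio of 0.354 with an exact 95% counting interval of 0.153 to 0.751. All 6 Cck counts were even, as were 84.3% to 87.3% of counts from 1 to 20 in each library, and whether a read pair was counted as 2 is not given. With counts halved the interval became 0.0998 to 1.04, which includes 1. Both intervals cover counting error only. With the spread between libraries the DESeq2 interval was 0.0868-fold to 1.44-fold, and Cck was called by neither tool. Gast had 34, 17 and 14 counts in controls and 10, 46 and 20 in knockouts. It spread more within the knockouts than between the genotypes (0.24 ± 0.71 SE, DESeq2 adjusted p = 0.962).

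Gip had 0 counts in all 6 libraries, and Nts had 2 counts in control replicate 2 and 0 in the other 5. A count of 0 allows up to 3 counts, or 0.0272 to 0.0296 CPM, in a library, and the limit is higher if read pairs were counted as 2. Neither gene was fitted. Markers of the intestinal epithelium were examined beside them: of 11 genes, Sis and Cdx1 were at 0 in every library, and Cdx2 had 2 counts in control replicate 3 alone. Apoa4 had 450 counts in knockout replicate 1, 12 in control replicate 3 and 0 in the other 4. The list summed to 10224 to 13876 normalized counts in controls and 11024 to 12271 in knockouts, nearly all of it from Vil1, a microvillus gene that islets also express. Of the enteroendocrine list, which includes Gip and Nts, 6 of 7 genes were found, and Fev, a gene that islet cells also express, made up most of its sum of 1377 to 2004 and 1103 to 1449. Tph1, the serotonin synthesis enzyme gene of that list, named after its values were seen, had 18, 14 and 212 counts in controls and 4, 6 and 2 in knockouts, with control replicate 3 alone far above the rest (no p in DESeq2, edgeR adjusted p = 0.288). These RNAs thus held the receptor of Gip in quantity, given below, without a detected Gip transcript.

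Vip, Npy and Gal are the nerve peptides of the list. Vip was at 2649, 5134 and 4812 normalized counts in controls and at 3273, 2554 and 7804 in knockouts. Knockout replicate 3 was the highest and knockout replicate 2 the lowest of all 6, so the knockouts enclosed the controls. The log2 fold change was 0.11 ± 0.54 (SE, DESeq2 adjusted p = 0.979), with an interval from 0.52-fold to 2.25-fold. Without knockout replicate 3 it was -0.53, and without control replicate 1 it was -0.13; neither passed.

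Npy was at 1757, 2373 and 2030 normalized counts in controls and at 1062, 1417 and 2516 in knockouts. Knockout replicates 1 and 2 lay below every control and knockout replicate 3 above every control. With all libraries the log2 fold change was -0.30 ± 0.39 (SE, DESeq2 adjusted p = 0.883). Without knockout replicate 3 Npy was lower by 0.73 on the log2 scale (a change of -0.73 ± 0.18 SE, adjusted p = 0.00566), where 1.49% of genes passed. Without knockout replicate 1 it was -0.063 (adjusted p = 0.999). Its adjusted p lay between 0.00566 and 0.999 in the 12 alternatives. Gal was at 135, 286 and 193 normalized counts in controls and at 166, 227 and 283 in knockouts, which overlapped (0.14 ± 0.30 SE, DESeq2 adjusted p = 0.946). Its sign turned without control replicate 1 (-0.09) and without knockout replicate 3 (-0.06).

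Markers of peripheral neurons were read beside these genes. All 12 listed genes were found, 0 of them were at 0 throughout, and 0 passed in DESeq2, where 2.19% of all genes did. Their sum was 34164 to 40178 normalized counts in controls and 32478 to 38777 in knockouts. Ret and Th are also made by islet endocrine cells, and the other 10 are given apart, a choice made after their values were seen. The 10 genes summed to 9743, 9733 and 12101 normalized counts in controls and to 5990, 9892 and 12525 in knockouts. Knockout replicate 3 was the highest library for 7 of the 10 and the highest knockout for 10 of 10 and knockout replicate 1 the lowest library for 8 of 10. Th, left out here, went the other way: it was lowest of all libraries in knockout replicate 3, at 3054 normalized counts against 4597 in knockout replicate 1. Slc5a7, the choline transporter gene, was at 1806 normalized counts in knockout replicate 3 against 705 in knockout replicate 1, a marker chosen after its values were seen. Vipr2, a receptor gene of Vip, had 268 normalized counts in knockout replicate 1 and 819 in knockout replicate 3, with controls from 309 to 698. The part of nerve content in the values of Vip, Npy and Gal was not tested.

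**Figure D4:**
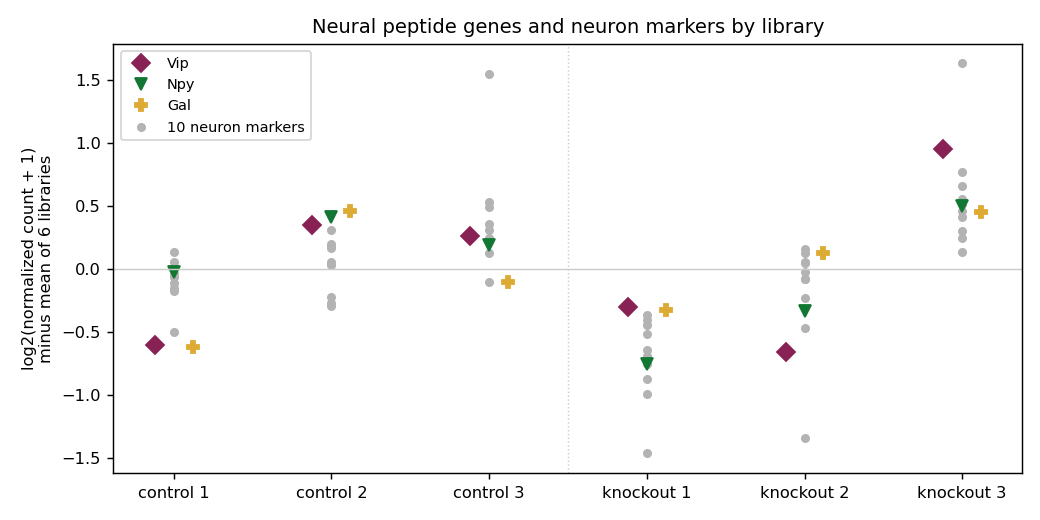
log2(normalized count + 1) minus its mean over the 6 libraries for Vip, Npy and Gal (coloured) and 10 peripheral neuron markers (grey), without Ret and Th. All points of knockout replicate 1 lie below 0, Npy at -0.75, and all points of knockout replicate 3 lie above it, Vip at 0.95 and Npy at 0.50.

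Receptors for the peptides were then described, 17 genes of which 14 were fitted and 11 given an adjusted p. In DESeq2, 1 rose and 0 fell, where 1.53% of all genes were called higher and 0.657% lower, and the median log2 fold change was -0.12. Sort1, which binds neurotensin among other ligands, had the highest mean level per length at 108 TPM, followed by Gipr at 79.8 and Vipr1 at 40.0. Gipr, the receptor through which the incretin Gip acts on islets, was at 14808, 13355 and 9543 normalized counts in controls and 12145, 11476 and 10822 in knockouts (-0.13 ± 0.14 SE, DESeq2 adjusted p = 0.83). Vipr1, a receptor gene of Vip, was higher in all 3 knockouts than in any control, but did not pass (0.24 ± 0.09 SE, DESeq2 adjusted p = 0.164). Ntsr2 had 0 counts throughout, and Npy5r and Npy6r had 2 counts in 1 library each.

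The receptor gene that rose was Cckar, which encodes the CCK receptor of acinar cells. It was at 549, 883 and 490 normalized counts in controls and at 1216, 1322 and 1311 in knockouts. Every knockout was above every control, and the log2 fold change was 1.00 ± 0.19 (SE, DESeq2 adjusted p = 6.78e-05). Its adjusted p lay between 3.57e-23 and 0.172 in the 12 alternatives, and edgeR, which gave the 0.172, lost the call. The acinar transcription factor gene Ptf1a was also higher in every knockout than in any control (DESeq2 adjusted p = 0.0122). It was at 29.8, 63.4 and 44.6 normalized counts in controls and 127, 120 and 104 in knockouts. The call was lost in edgeR (adjusted p = 0.219) and without knockout replicate 1, 2 or 3 (0.200, 0.0869 and 0.0548). Control replicate 2 was the highest control for both genes. Knockout replicate 1, however, was the highest library for Ptf1a and the lowest knockout for Cckar. Of the 7 acinar markers, Ptf1a alone passed in DESeq2, where 1.53% of all genes were called higher. The summed acinar markers were also higher in the knockouts, as given above, and their part in the Cckar result was not tested.

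Genes of peptide processing and inactivation mostly missed the threshold. Of 18 genes, all fitted and 17 given an adjusted p, 1 rose and 0 fell in DESeq2, where 1.53% and 0.657% of all genes did, with a median log2 fold change of -0.05. The most abundant per length were Cpe (carboxypeptidase E) at 3164 TPM, Pcsk2 (a prohormone convertase) at 1451 and Pcsk1n (the precursor of a convertase inhibitor) at 1408. Their log2 fold changes were 0.01 ± 0.06, -0.14 ± 0.08 and -0.08 ± 0.08 (SE), and none passed in DESeq2 (adjusted p = 0.982, 0.477 and 0.806). Ace, which encodes angiotensin-converting enzyme, a peptidase of endothelium and other tissues, rose from 5488, 5142 and 6063 normalized counts to 7275, 7568 and 7166. Its log2 fold change was 0.40 ± 0.08 (SE, DESeq2 adjusted p = 0.000426), while edgeR gave an adjusted p of 0.113 and the 12 alternatives ran from 3.58e-10 to 0.113. The 4 endothelial markers summed to 61801 to 69688 normalized counts in controls and 64126 to 74822 in knockouts. The mesenchymal and acinar marker sums, given above, were higher in every knockout than in any control. The part of any of these in the Ace result was not tested.

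Among 30 other peptide hormone and neuropeptide genes, 29 were found, 21 fitted and 15 given an adjusted p. In DESeq2, 1 rose and 0 fell, beside 1.53% and 0.657% of all genes, and the median log2 fold change was 0.06. The gene that rose was Penk, the precursor of the enkephalins, at 325, 422 and 359 normalized counts in controls and 984, 689 and 811 in knockouts. The groups lay apart, and DESeq2 put the log2 fold change at 1.17 ± 0.17 (SE, adjusted p = 7.63e-09, edgeR 0.0496). The call held in each of the 12 alternatives, with an adjusted p of Penk between 2.54e-09 and 0.0496. The mesenchymal and acinar marker sums were also higher in every knockout than in any control. Among the knockouts, the mesenchymal sum was highest in replicate 1 and lowest in replicate 2, as Penk was. The acinar sum was instead highest in knockout replicate 2. The part of either in the Penk result was not tested. The most abundant per length were the granule protein gene Scg2 at 6116 TPM, the dynorphin precursor gene Pdyn at 43.2 and the granule peptide gene Vgf at 13.5. None of these 3 passed in DESeq2 (log2 fold changes 0.07, 0.06 and -0.43, adjusted p = 0.897, 0.938 and 0.154). Grp, a neuronal bombesin-like peptide gene named after its values were seen, was at 52.6, 177 and 244 normalized counts in controls and 22.7, 22.7 and 138 in knockouts, with knockout replicate 3 again the highest knockout.

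**Figure D5:**
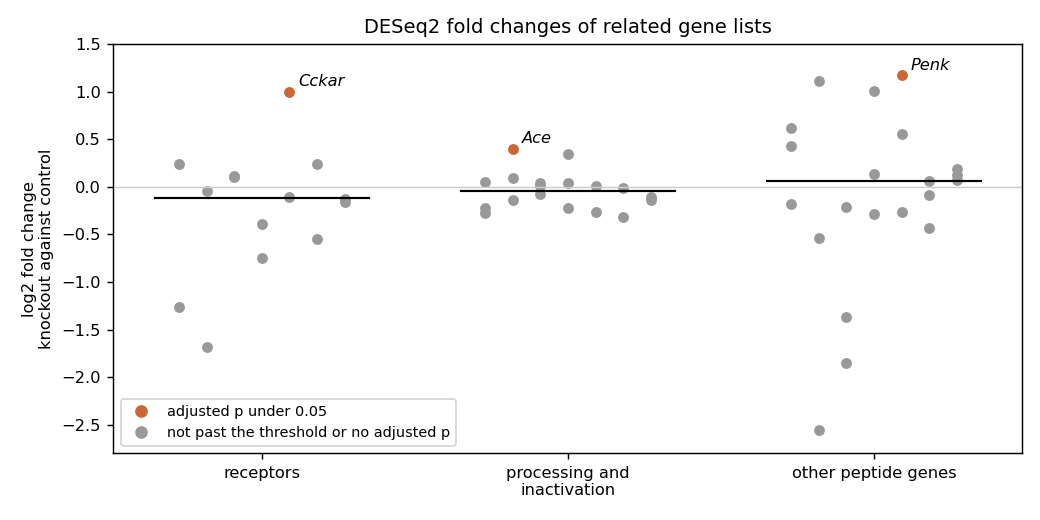
DESeq2 log2 fold change of knockout against control for each fitted gene of the receptor, processing and other peptide lists, with a bar at the median of each list. Of the coloured genes, past an adjusted p of 0.05, there is 1 in each list: Cckar at 1.00, Ace at 0.40 and Penk at 1.17.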

How the data were processed

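Polyadenylated RNA of isolated islets was sequenced in 6 libraries, 3 per genotype, per the labels' protocols. The deposited table holds raw counts of reads per gene made by the authors; its name records trimming with cutadapt, and STAR, featureCounts and mm10 are named in the submitters' processing notes. Versions and the strand setting are not given in the sources used here. All 55536 gene identifiers and symbols equal those of GENCODE M21 (GRCm38), from which coordinates and exon lengths were taken. Columns were matched to samples by group and number, and 0 were left unused. The members and gene lists were chosen with earlier results of these data known.

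As the series' design text states, DESeq2 (1.42.0, R 4.3.3) was the main test: size factors, genotype as the only term, genes with at least 10 counts in total, and a Benjamini-Hochberg adjusted p under 0.05. Both DESeq2 and edgeR were tested on simulated data. Alternatives were edgeR 4.0.16 with TMM, TMM factors, other filters, a threshold of 0.1, the replicate number as a block and each library left out. Exact permutation tests used log2(normalized count + 1) for single genes and the log2 ratio of raw counts for the ratios. Named genes were all 10 members, Klf4, genes past the threshold and the 3 most abundant of the PP-cell and peptide pathway lists, and the 3 genes nearest to Ppy and Pyy. Genes of the alpha, neuron, acinar, mesenchymal, endothelial and gut marker lists, also those past the threshold, are mostly given as sums. Lists of beta, delta, duct, glial, leukocyte and immediate early genes are not summed here. Their genes past the threshold in DESeq2 were Nkx6-1 (log2 fold change -0.23, adjusted p = 0.0314), Muc1 (0.66, 0.001), Cd68 (0.53, 0.0416) and Fosb (0.51, 0.00286). None of these passed in edgeR (adjusted p = 0.361, 0.186, 0.314 and 0.187). Aqp3, Ptgfr, Gc, Slc7a2, Vipr2, Npy5r, Npy6r, Apoa4, Cdx2, Vil1 and Fev were named after their values were seen, as were those marked in the text. At 101277200 to 110243918 counts per library the spread between libraries, not counting error, limits all but the rarest genes. The exact counting intervals of Cck and the floors of 3 counts cover counting error only. The DESeq2 intervals include the spread between libraries.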

Additional observations from a re-analysis of the deposited data

How the results depend on the processing

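The number of genes past the threshold was 389 in DESeq2, 29 in edgeR, 405 with the replicate block, 614 at an adjusted p of 0.1 and 153 to 952 when 1 library was left out, lowest without knockout replicate 1 and highest without control replicate 3. Of the 10 peptide genes, 0 passed, except Npy without knockout replicate 3 and Pyy under the replicate block, 1 gene in each case (0 to 1 over the libraries left out). With the replicate number as a block, Pyy had a log2 fold change of -0.35 and an adjusted p of 0.00653, and the other members did not pass. Same-numbered libraries did not deviate together over 15811 genes (correlations of -0.048, -0.059 and 0.01). Whether the numbers pair the samples is not given. These correlations cannot decide it, since a pairing that touched few genes would also leave them near 0. The sign of Ppy turned in 2 of 13 alternatives, both of them libraries left out (-0.20 to 0.067). When 1 library was left out, Ghrl ranged from -0.41 to 0.15, Gast from -0.56 to 0.71, Pyy from -0.46 to -0.16, Npy from -0.73 to -0.063, Gal from -0.09 to 0.46 and Vip from -0.53 to 0.40. The signs turned without control replicate 2 for Ghrl (0.15), without knockout replicate 3 for Ghrl (0.051), Gal (-0.06) and Vip (-0.53), without knockout replicate 2 for Gast (-0.56), and without control replicate 1 for Gal (-0.09) and Vip (-0.13). Of 90 results for the members other than Ppy, 81 kept direction with no call gained or lost, some of them without an adjusted p. Of the ratios, Ghrl to Ppy (-0.02) ranged from -0.24 to 0.10, Ppy to Ins2 (-0.13) from -0.24 to 0.06 and Npy to Ppy (-0.28) from -0.81 to 0.07 and turned sign. Ghrl to Ppy was 0.08, 0.10 and 0.04 without control replicates 1 and 2 and knockout replicate 3. The cause was not tested. Depth limits Cck, Nts and Gip.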
